A study of Rattus norvegicus with 2 samples.

Results

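The genes described here are the Hox genes and other homeobox genes that mark regions of the body and the brain, measured in rat neural stem cells grown with or without a layer of mesenchymal cells. They were chosen by a rule on symbols, with earlier results of these data known. The rule took every symbol that begins with Hox, and every Pax, Nkx, Lhx, Irx, Dlx, Otx, Emx, Meis, Pbx or Pou symbol followed by a number. It also took the sine oculis genes with a number (Six2 to Six6 here), and En1, En2, Gbx1 and Gbx2. This gave 113 of the 22093 genes with a symbol of their own on the array, of which 33 are Hox genes. The other 80 include 5 matches that are not homeodomain genes by their names: the antisense transcript Hoxa11-as, Six6os1 and the POU coactivators Pou2af1, Pou2af2 and Pou2af3. Whether every remaining member, such as each Pax gene, codes for a homeodomain was not checked.

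The co-cultured sample held neural stem cells that grew for 14 days on ectodermal mesenchymal stem cells (EMSCs) of passage 3, taken from rats with a green fluorescent protein transgene. The mono-cultured sample held neural stem cells kept without EMSCs for the same 14 days and served as control. In both, the cells came from whole brains of Sprague-Dawley (SD) rat embryos at day 13.5 and had formed neurospheres for 10 days in serum-free medium with bFGF and EGF. The co-culture medium contained serum, and the labels do not give the medium of the mono-culture separately. The co-cultured cells were recovered by fluorescence-activated sorting, whose gates the labels do not give, and neither the tissue of the EMSCs nor the number of animals per sample is stated. Each condition is 1 array, so no difference below has a replicate check and no p-value was computed.

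Homeobox genes code for transcription factors that bind DNA through a homeodomain. In vertebrates the Hox genes lie in clusters named A to D, and their paralogue number follows their order along the chromosome: low numbers are expressed up to the hindbrain, middle numbers in the neck and trunk, and high numbers toward the tail. The forebrain and midbrain normally lack Hox expression and are marked by other homeobox genes, such as Otx, Emx, Lhx, Dlx and En genes. Mesenchyme of the trunk keeps a Hox code, whereas the mesenchyme of the face, which derives from the neural crest, mostly lacks one.

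Levels are log2 values from robust multi-array averaging (RMA), and every difference was taken as co-cultured minus mono-cultured, so that 1 stands for 2-fold. A level was taken as bright enough for a call if it reached 4.97, the median of all gene values, on at least 1 array, and genes that did are called kept. As a second mark, 6.64 is the 95th percentile of the 1153 negative control probe sets. Over all genes the median difference was 0.00, and 1414 genes had the same value on both arrays. Mesenchymal markers were mostly higher in co-culture, with 11 of 12 at least 2-fold higher and median levels of 9.70 in co-culture against 6.09 in mono-culture. Levels of these 12 markers exceeded 6.64 for 11 genes in co-culture and 3 in mono-culture. All 10 microglia markers were at least 2-fold lower, with median levels of 4.56 in co-culture against 9.37 in mono-culture. Of 9 neural stem cell markers, 5 exceeded 6.64 on each array, 7 were lower in co-culture and the median difference was -0.46. Sox2 differed by -0.14, while Slc1a3 and Fabp7 differed by -2.50 and -1.95. The 2 higher markers, Nes and Vim, differed by 0.80 and 0.34.

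All 33 Hox genes had a higher level in co-cultured than in mono-cultured neural stem cells, with differences from 0.11 to 2.58 and a median of 0.69 (interquartile range 0.49 to 0.95). Over all genes 48.5% had a higher level in co-culture, and among negative controls 38.0%, with a median of -0.16. Among genes below 4.97 on both arrays the share was 55.7%, with a median of 0.06. At any level, 7 of the 33 Hox genes passed 2-fold upward and 0 downward, beside 2.93% and 3.23% of all genes. The direction was the same in all 51 probe sets of these genes. The levels were low: the highest of them was 6.36 in co-culture against 4.81 in mono-culture, so 0 of 33 genes exceeded 6.64 on either array, beside 18.8% of all genes in co-culture and 19.5% in mono-culture. In co-culture 12 Hox genes reached 4.97 and in mono-culture 0 did. Those 12 passed only through the array on which they are higher, so a difference among them follows in part from the choice. The mesenchymal markers moved in the same direction as the Hox genes, and their part in the Hox result was not tested. In bulk RNA, fewer cells of a type and less RNA per cell cannot be told apart.

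**Figure D1:**
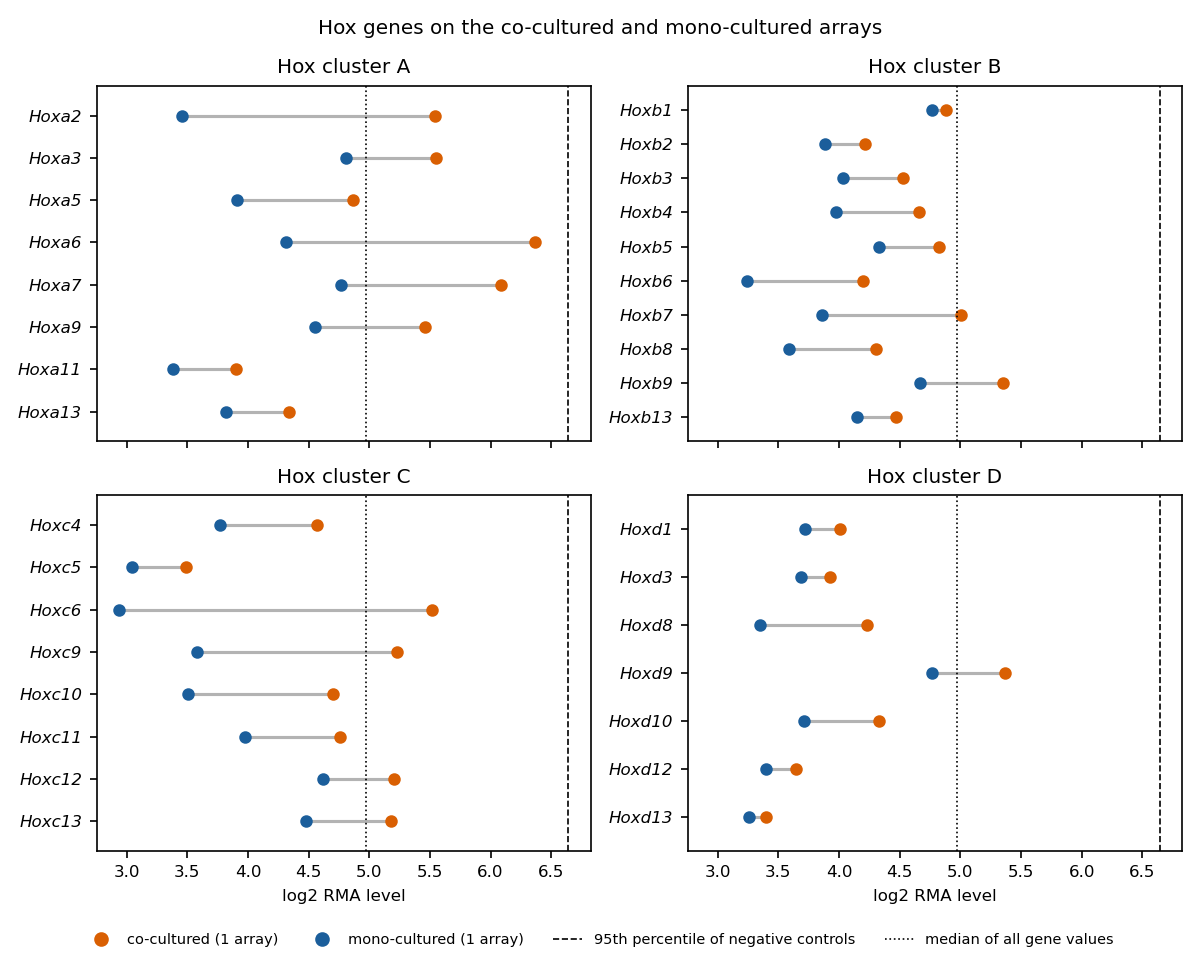
Log2 RMA levels of the 33 Hox genes, a row per gene in order of paralogue number, in a panel per cluster; orange points are the co-cultured array, blue points the mono-cultured array, and lines mark 4.97 and 6.64. The orange point lies right of the blue point in every row, and no point reaches 6.64.

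The cluster with the highest median difference was HoxA, on rat chromosome 4, with a median of 0.93 over 8 genes and 3 of them at least 2-fold higher. Hoxa2, which patterns the hindbrain and pharyngeal arches in the mouse, measured 5.54 in co-culture against 3.45 in mono-culture, a difference of 2.09 or 4.25-fold. Among the negative controls these levels stood at percentiles 87.4 (co-cultured array) and 46.2 (mono-cultured array). Its 3 probe sets gave 1.16, 2.37 and 2.73, so the size of its difference depends on the probe set and its direction does not. Hoxa6, a gene of the trunk region of the cluster, was 6.36 in co-culture against 4.32 in mono-culture, a difference of 2.05 or 4.13-fold, with percentiles of 93.7 and 66.3 among the negative controls. Its 4 probe sets lay between 1.79 and 2.68, so each passed 2-fold. The neighbouring Hoxa7 was 6.08 in co-culture against 4.77 in mono-culture, a difference of 1.32, from probe sets at 1.81 and 0.82, of which the second lies within 2-fold.

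The other HoxA genes were higher by less than 2-fold. Hoxa3, needed for thymus and parathyroid development in the mouse, was 5.55 in co-culture against 4.81 in mono-culture (0.74). Hoxa9, a gene of posterior trunk, limb and blood progenitors, was 5.46 in co-culture against 4.55 in mono-culture (0.91), and its 5 probe sets ranged from 0.62 to 1.58. Hoxa5, at 4.87 in co-culture against 3.91 in mono-culture, was just short of both the level mark and 2-fold, with a difference of 0.96. The posterior genes Hoxa11 and Hoxa13, which act in the limb and the urogenital tract, were dim on both arrays, at 3.90 in co-culture against 3.38 in mono-culture and 4.34 in co-culture against 3.82 in mono-culture, a difference of 0.52 each. The antisense transcript Hoxa11-as was 4.54 in co-culture against 4.21 in mono-culture (0.33). In RefSeq (GRCr8) the Hoxa3 gene spans Hoxa6, so probes on shared exons could read either gene.

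Of the 7 Hox genes that differed by at least 2-fold at any level, 3 have an entry among RefSeq's promoters for GRCr8, and the 250 bases before the start used in that table are shown, since these are the HoxA genes with the widest differences. For Hoxa2 and Hoxa7 the window lies inside the gene's full RefSeq span, and for Hoxa6 it lies outside. Capitals mark matches, on either strand, to the joint PBX and HOX motif TGATNNAT, the MEIS motif TGACAG, the retinoid and nuclear receptor half-site AGGTCA or the TATA motif TATAAA. The sequences run 5′ to 3′ along the gene and lie at chr4:82595693-82595942 on the minus strand (Hoxa2), chr4:82639464-82639713 on the minus strand (Hoxa6) and chr4:82648242-82648491 on the minus strand (Hoxa7).
Hoxa2: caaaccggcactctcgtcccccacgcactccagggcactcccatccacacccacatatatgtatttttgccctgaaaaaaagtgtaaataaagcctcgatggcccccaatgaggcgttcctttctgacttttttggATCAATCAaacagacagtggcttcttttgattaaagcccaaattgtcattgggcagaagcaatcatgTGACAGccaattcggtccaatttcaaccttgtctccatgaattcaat
Hoxa6: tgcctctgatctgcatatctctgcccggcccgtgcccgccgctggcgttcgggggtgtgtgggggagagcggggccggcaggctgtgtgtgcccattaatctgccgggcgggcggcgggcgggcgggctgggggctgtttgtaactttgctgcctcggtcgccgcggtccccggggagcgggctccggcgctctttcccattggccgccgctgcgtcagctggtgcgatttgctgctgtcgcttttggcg
Hoxa7: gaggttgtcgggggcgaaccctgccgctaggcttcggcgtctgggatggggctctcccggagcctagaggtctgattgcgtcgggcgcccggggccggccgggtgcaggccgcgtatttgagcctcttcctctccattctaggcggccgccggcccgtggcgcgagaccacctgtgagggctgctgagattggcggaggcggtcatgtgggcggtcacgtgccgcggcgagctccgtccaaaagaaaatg
The Hoxa2 window held 1 match to TGATNNAT and 1 to TGACAG, 107 and 42 bases before the start, and no match to AGGTCA or TATAAA. The Hoxa6 and Hoxa7 windows held no match to these letters. Hoxa6 and Hoxa7 also differ from Hoxa2 in base content, with 28 CpG dinucleotides each against 6 in Hoxa2. The median was 19 over the 16 Hox genes with an entry and 6 over all 27457 promoters. TGATNNAT was found in 2 of the 16 Hox windows, or 12.5%, and in 7.75% of all promoters, and TGACAG in 12.5% and 15.6%. AGGTCA and TATAAA were each found in 12.5% of the Hox windows and in 13.7% and 13.1% of all promoters.

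HoxC, on chromosome 7, had a median difference of 0.79 over 8 genes and, in the levels as deposited, held the largest difference of any Hox gene. Hoxc6, expressed at forelimb and thoracic levels, was 5.52 in co-culture against 2.94 in mono-culture, a difference of 2.58 or 5.98-fold, with percentiles of 87.1 and 34.4 among the negative controls. With levels below 4.97 raised to 4.97 the difference was 0.55, below that of Hoxa6, 1.39, so the rank of Hoxc6 depends on how its dim level is treated. Hoxc9, which sets thoracic identity of motor neurons in the mouse spinal cord, was 5.23 in co-culture against 3.58 in mono-culture, a difference of 1.65. Its 2 probe sets disagreed in size, at 2.51 and 0.78. Hoxc10, a lumbar gene, differed by 1.19, but its levels of 4.70 and 3.51 were below 4.97 on both arrays. Toward the posterior end the differences were smaller. Hoxc11, Hoxc12 and Hoxc13, the last of them a regulator of hair and nail keratin, differed by 0.78, 0.58 and 0.70, with Hoxc12 at 5.21 in co-culture against 4.62 in mono-culture and Hoxc13 at 5.18 in co-culture against 4.48 in mono-culture. The anterior genes Hoxc4 (4.57 in co-culture against 3.77 in mono-culture) and Hoxc5 (3.49 in co-culture against 3.04 in mono-culture) differed by 0.79 and 0.45. In RefSeq the Hoxc6 gene overlaps Hoxc4 and Hoxc5, and whether their probe sets share sequence was not tested.

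HoxB, on chromosome 10, had a median difference of 0.59 over 10 genes. Hoxb7 alone was at least 2-fold higher, at 5.01 in co-culture against 3.86 in mono-culture (1.15), and it lay just above the level mark. Its neighbours Hoxb6 and Hoxb8 differed by 0.95 and 0.71, with levels of 4.20 in co-culture against 3.24 in mono-culture and 4.31 in co-culture against 3.59 in mono-culture. Hoxb9 was 5.35 in co-culture against 4.66 in mono-culture (0.69). In the levels as deposited, Hoxb6, Hoxb7 and Hoxb8 differed more than the other genes of the cluster. This order rests on dim levels. With levels below the level mark raised to it, Hoxb7 differed by 0.04 and Hoxb9 by 0.38, while Hoxb6 and Hoxb8 lie below the mark on both arrays. Hoxb1, which specifies a segment of the hindbrain, was 4.88 in co-culture against 4.76 in mono-culture, the smallest difference of the Hox genes at 0.11. Hoxb2, Hoxb3, Hoxb4 and Hoxb5 differed by 0.33, 0.50, 0.68 and 0.49, with co-culture levels between 4.22 and 4.82. Hoxb13, the most posterior gene, was 4.47 in co-culture against 4.15 in mono-culture (0.32).

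HoxD, on chromosome 3, had the lowest median of the clusters, 0.29 over 7 genes, and 0 of them were 2-fold higher. Hoxd8 differed most, at 4.23 in co-culture against 3.35 in mono-culture (0.88). Hoxd9 was the 1 gene of the cluster to reach 4.97, at 5.36 in co-culture against 4.76 in mono-culture (0.60), and Hoxd10 was 4.33 in co-culture against 3.71 in mono-culture (0.62). The limb and digit genes Hoxd12 and Hoxd13 differed by 0.25 and 0.15, and the anterior genes Hoxd1 and Hoxd3 by 0.29 and 0.24, all of them dim. A probe set assigned to both Hoxd4 and Mir10b, and so left out of the counts, was 4.21 in co-culture against 3.74 in mono-culture (0.48).

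Along the clusters, the widest differences in the levels as deposited lay in the middle. Genes of paralogue groups 5 to 8 had a median difference of 0.96 over 10 genes. The median was 0.50 over the 9 genes of groups 1 to 4, and 0.61 over the 14 genes of groups 9 to 13. At any level, 4 genes of groups 5 to 8 passed 2-fold upward, 1 of groups 1 to 4 and 2 of groups 9 to 13, beside 2.93% of all genes. Of the 10 genes of groups 5 to 8, 4 reached 4.97 in co-culture and 0 in mono-culture, so the median of these 10 rests mostly on dim levels. Group 5 alone had a median of 0.49, below those of group 9 (0.80) and group 10 (0.91). The order is a description of 1 pair of arrays and was not tested. Within paralogue group 6, Hoxc6, Hoxa6 and Hoxb6 differed by 2.58, 2.05 and 0.95, and in group 7 Hoxa7 and Hoxb7 by 1.32 and 1.15. In the levels as deposited, the largest difference stood at Hoxb7 in HoxB, at Hoxc6 in HoxC and at Hoxd8 in HoxD. HoxA departs from this order through Hoxa2, whose difference was as wide as that of Hoxa6 in the levels as deposited, but 0.57 against 1.39 with levels raised to 4.97. With levels so raised, Hoxb9 differed by 0.38 against 0.04 for Hoxb7. Hoxd9 then differed by 0.40, while Hoxd8 lies below 4.97 on both arrays. The group 13 genes differed by 0.15 to 0.70.

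**Figure D2:**
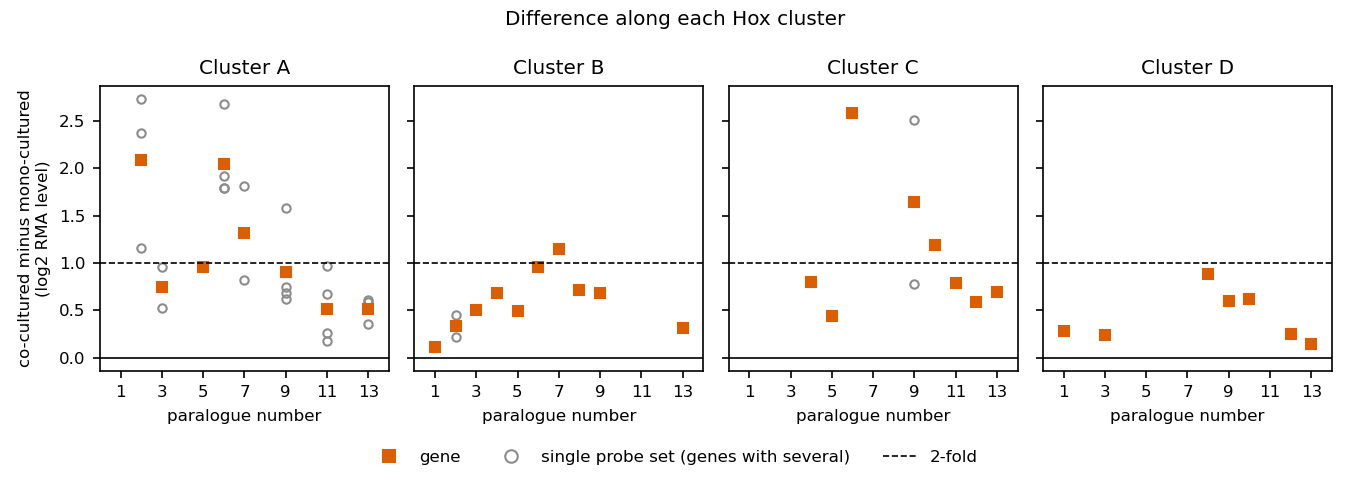
Difference in log2 RMA level, co-cultured minus mono-cultured, against paralogue number in each Hox cluster; squares are genes, open circles the single probe sets of genes with several, and the dashed line marks 2-fold. All squares and circles lie above 0, and the highest squares lie at paralogue 7 in HoxB (1.15), 6 in HoxC (2.58) and 8 in HoxD (0.88), while HoxA has 2.09 at paralogue 2 and 2.05 at paralogue 6.

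The 80 members outside the Hox clusters showed no common direction, with 47 higher in co-culture and a median difference of 0.09 (interquartile range -0.13 to 0.33). Of these 80 genes 41 reached 4.97 on at least 1 array, 37 in co-culture and 30 in mono-culture. At any level 4 of the 80 passed 2-fold upward and 3 downward, beside 2.93% and 3.23% of all genes. The higher genes were Pax9, Six2, Lhx8 and the dim Pax3, and the lower genes Emx2, Lhx2 and Pou2f2. Pax9, Lhx8, Emx2 and Pou2f2 reached 4.97 only on the array where they are higher. Of the 80 genes, 3 exceeded 6.64 in co-culture (Pbx3, Six2 and Pou3f3) and 4 in mono-culture (Pou3f3, Lhx2, Pbx3 and Nkx2-2), beside 18.8% and 19.5% of all genes.

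**Figure D3:**
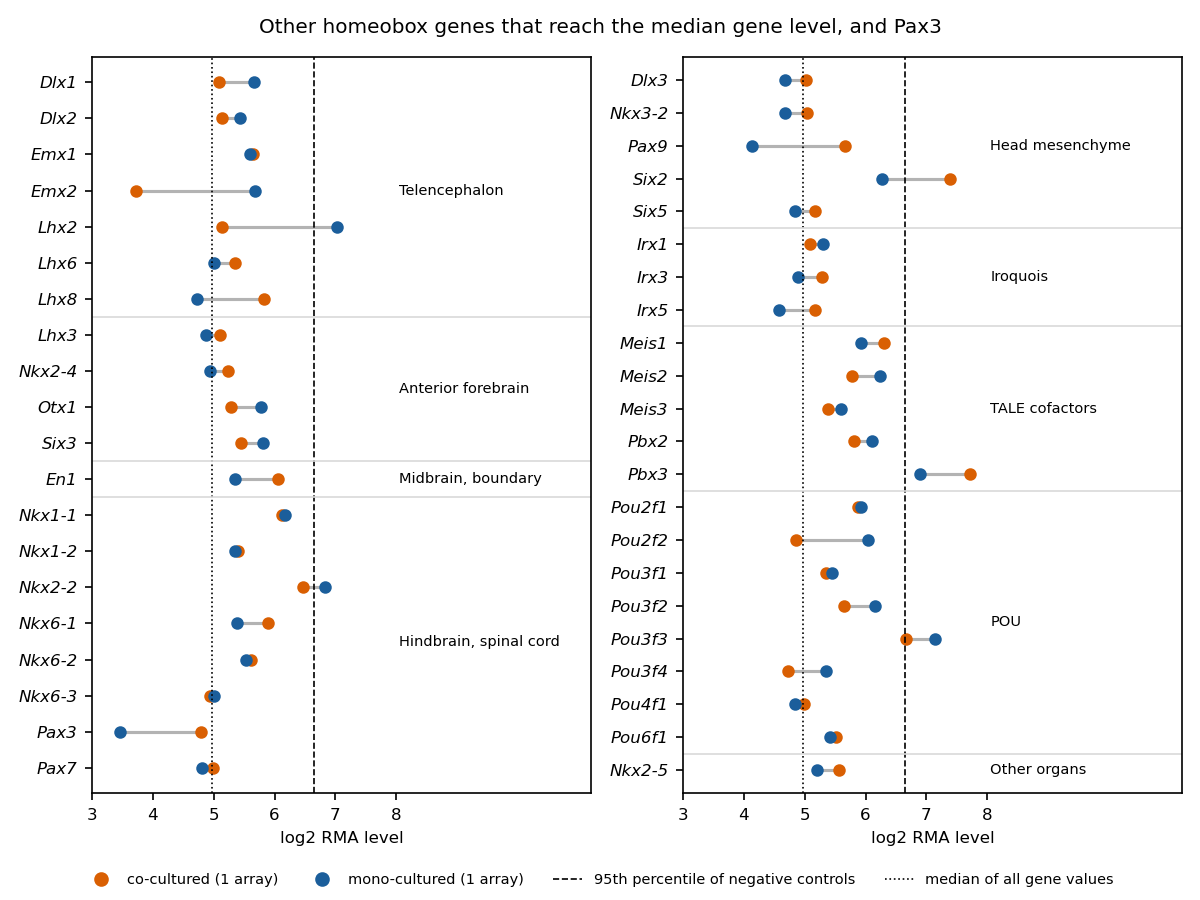
Log2 RMA levels of the 41 members outside the Hox clusters that reach 4.97 on at least 1 array, and of Pax3, by regional group; orange points are the co-cultured array, blue points the mono-cultured array, and lines mark 4.97 and 6.64. Emx2, Lhx2 and Pou2f2 have their orange point far left of the blue one, and Pax9, Pax3, Six2 and Lhx8 far right.

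Genes of the telencephalon held the widest downward differences. Emx2, which sets caudal and medial identity of the cortex and is needed for the hippocampus in the mouse, was 3.72 in co-culture against 5.68 in mono-culture, a difference of -1.96, or 3.90-fold lower. Its levels stood at percentiles 57.2 and 87.5 of the negative controls, and with levels raised to 4.97 the difference was -0.71. Lhx2, a selector gene of the cortex and the eye, was 5.13 in co-culture against 7.02 in mono-culture, a difference of -1.89, or 3.72-fold lower, and its mono-culture level stood at percentile 96.5 of the negative controls. In the same group Lhx8, expressed in basal forebrain cholinergic neurons and in the jaw mesenchyme that forms teeth, was 5.83 in co-culture against 4.72 in mono-culture, a difference of 1.11. The interneuron gene Lhx6 was 5.36 in co-culture against 5.01 in mono-culture (0.35). Dlx1 and Dlx2, which drive interneuron production in the ventral telencephalon, were 5.09 in co-culture against 5.66 in mono-culture (-0.56) and 5.14 in co-culture against 5.43 in mono-culture (-0.29). The cortical gene Emx1 was 5.64 in co-culture against 5.59 in mono-culture (0.05). Pax6, a regulator of cortical progenitors, was below 4.97 as an average, at 4.01 in co-culture against 4.53 in mono-culture (-0.52), with probe sets at -0.79 and -0.26. The ventral gene Nkx2-1 was 4.83 in co-culture against 4.62 in mono-culture (0.21). Over the 9 genes the median was -0.29, with 4 higher and 5 lower. Of 6 astrocyte markers, 3 were at least 2-fold lower and 1, Gja1, at least 2-fold higher, with median levels of 5.88 in co-culture against 6.58 in mono-culture, and their part in these differences was not tested.

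Of the genes for the anterior forebrain, eye, hypothalamus and pituitary, 0 of 8 reached 2-fold and the median was 0.01. Otx1 and Otx2, which specify forebrain and midbrain, were 5.28 in co-culture against 5.78 in mono-culture (-0.50) and 3.70 in co-culture against 4.17 in mono-culture (-0.47), and both Otx2 probe sets were lower. Six3, an eye and forebrain gene, was 5.44 in co-culture against 5.80 in mono-culture (-0.36). The related eye gene Six6 differed by 0.17. The pituitary and motor neuron genes Lhx3 and Lhx4 were 5.11 in co-culture against 4.86 in mono-culture (0.24) and 4.85 in co-culture against 4.64 in mono-culture (0.21), and the hypothalamic gene Nkx2-4 was 5.24 in co-culture against 4.94 in mono-culture (0.30). Pou1f1, the pituitary hormone regulator, was dim at 2.54 in co-culture against 2.68 in mono-culture (-0.14).

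Genes of the midbrain and its boundary with the hindbrain had a median difference of 0.14 over 7 genes. En1, which maintains dopamine neurons and the boundary, was the 1 gene that reached 4.97, at 6.06 in co-culture against 5.36 in mono-culture (0.70), short of 2-fold. Its relative En2 was 4.76 in co-culture against 4.80 in mono-culture (-0.04). Gbx1, Gbx2, Pax2, Pax5 and Pax8, of which Gbx2 and Pax2 position the boundary, were dim, with co-culture levels between 4.03 and 4.59, and differed by 0.05 (Pax2) to 0.47 (Gbx2).

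The genes that divide the hindbrain and spinal cord from back to belly had a median of 0.09 over 11 genes. Pax3, a dorsal neural tube and neural crest gene, differed by 1.33 (2.51-fold), but at 4.79 in co-culture against 3.46 in mono-culture it was dim on both arrays. Pax7, its close relative, was 4.99 in co-culture against 4.81 in mono-culture (0.18). Nkx2-2, a ventral gene that also acts in oligodendrocyte differentiation, was 6.46 in co-culture against 6.83 in mono-culture (-0.37). The ventral genes Nkx6-1 and Nkx6-2 were 5.88 in co-culture against 5.38 in mono-culture (0.50) and 5.62 in co-culture against 5.53 in mono-culture (0.09). Oligodendrocyte markers differed as little, with 0 of 5 at 2-fold and a median of -0.02. Nkx6-3, Nkx1-1 and Nkx1-2 differed by -0.05, -0.06 and 0.06, at co-culture levels of 4.95, 6.12 and 5.40. The interneuron genes Lhx1, Lhx5 and Lhx9 were dim and differed by 0.31, -0.07 and 0.10.

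Genes of the head mesenchyme, the placodes and the axial skeleton had the highest median of the groups outside the Hox clusters, 0.37, with 8 of 10 higher in co-culture. Pax9, needed for teeth and palate in the mouse, was 5.66 in co-culture against 4.14 in mono-culture, a difference of 1.52, or 2.87-fold. Six2, which marks facial mesenchyme and kidney progenitors, was 7.39 in co-culture against 6.27 in mono-culture, a difference of 1.12, or 2.18-fold. Its co-culture level stood at percentile 97.2 of the negative controls and its mono-culture level at 93.3, which makes it the 1 member at least 2-fold higher that also exceeds 6.64. Six5 was 5.17 in co-culture against 4.84 in mono-culture (0.33), Dlx3 was 5.02 in co-culture against 4.68 in mono-culture (0.34) and the skeletal gene Nkx3-2 was 5.03 in co-culture against 4.68 in mono-culture (0.36). Pax1, a sclerotome gene, Six4 and Dlx4 were dim and differed by 0.56, 0.39 and 0.37. Dlx5 and Dlx6, which set lower jaw identity in the mouse, were the exceptions, at 4.51 in co-culture against 4.61 in mono-culture (-0.11) and 2.83 in co-culture against 3.03 in mono-culture (-0.20). The neural crest markers held 5 of 8 genes at least 2-fold higher and 1 lower, with median levels of 6.75 in co-culture against 5.06 in mono-culture, and the part of such cells in the differences of this group was not tested.

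The promoters of Six2 and Lhx2 are shown as those of the members outside the Hox clusters that differ by 2-fold and exceed 6.64 on an array. They are the 250 bases before the start in RefSeq's promoter table for GRCr8, and both lie inside the gene's full RefSeq span, at chr6:14727808-14728057 on the plus strand (Six2) and chr3:42535494-42535743 on the plus strand (Lhx2), with the same motifs to be marked in capitals.
Six2: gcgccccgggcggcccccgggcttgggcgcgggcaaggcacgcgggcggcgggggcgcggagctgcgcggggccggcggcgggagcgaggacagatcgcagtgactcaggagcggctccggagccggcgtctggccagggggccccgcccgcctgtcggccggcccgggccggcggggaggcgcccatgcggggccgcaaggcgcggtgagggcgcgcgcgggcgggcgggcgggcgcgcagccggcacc
Lhx2: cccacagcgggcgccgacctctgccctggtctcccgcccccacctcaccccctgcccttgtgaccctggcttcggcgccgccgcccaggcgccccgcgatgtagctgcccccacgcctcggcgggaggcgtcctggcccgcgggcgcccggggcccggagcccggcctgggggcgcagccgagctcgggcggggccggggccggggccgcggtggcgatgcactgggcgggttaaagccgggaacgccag
Neither window held a match to these motifs, so no base is in capitals. Both are rich in CpG, with 45 in Six2, which was higher in co-culture, and 33 in Lhx2, which was lower. Over the 72 members with an entry the median was 15.5.

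The Iroquois genes, which act in neural and heart patterning, showed 0 of 6 at 2-fold and a median of 0.14. Irx3 and Irx5 were 5.29 in co-culture against 4.88 in mono-culture (0.41) and 5.16 in co-culture against 4.58 in mono-culture (0.58), and Irx1 was 5.08 in co-culture against 5.30 in mono-culture (-0.22). Irx2, Irx4 and Irx6 were dim and differed by 0.09, 0.19 and -0.06.

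The Meis and Pbx genes code for homeodomain proteins of the TALE class that bind DNA together with Hox proteins. Their median difference was -0.11 over 6 genes, with 2 higher in co-culture, so unlike the Hox genes they had no common direction. At any level 0 of the 6 passed 2-fold upward or downward, beside 2.93% and 3.23% of all genes. Pbx3 was the brightest and differed most upward, at 7.71 in co-culture against 6.90 in mono-culture (0.81, or 1.75-fold), and exceeded 6.64 on both arrays. Meis1 was 6.30 in co-culture against 5.92 in mono-culture (0.38), while Meis2 was 5.78 in co-culture against 6.23 in mono-culture (-0.45) and Meis3 was 5.39 in co-culture against 5.60 in mono-culture (-0.21). Pbx2 was 5.82 in co-culture against 6.10 in mono-culture (-0.28), and Pbx4 had the same value, 4.41, on both arrays.

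POU genes had a median difference of 0.04 over 16 genes, with 8 higher. Pou2f2, which codes for a factor of B cells and other immune cells and of neurons, was the 1 gene past 2-fold, at 4.86 in co-culture against 6.04 in mono-culture, a difference of -1.18, or 2.26-fold lower. The microglia markers, all 10 of them with differences between -5.79 and -1.04, moved with it, and their part was not tested. The ubiquitous Pou2f1 was 5.88 in co-culture against 5.93 in mono-culture (-0.05). All 4 class III genes, which act in neural progenitors and glia, were lower, each by less than 2-fold. Pou3f3 was 6.67 in co-culture against 7.15 in mono-culture (-0.48), Pou3f2 was 5.65 in co-culture against 6.16 in mono-culture (-0.51) and Pou3f4 was 4.73 in co-culture against 5.35 in mono-culture (-0.63). Pou3f1, a regulator of Schwann cell myelination, was 5.35 in co-culture against 5.46 in mono-culture (-0.11). The sensory neuron gene Pou4f1 was 4.99 in co-culture against 4.83 in mono-culture (0.16) and Pou6f1 was 5.51 in co-culture against 5.42 in mono-culture (0.09). The pluripotency gene Pou5f1 was dim at 3.69 in co-culture against 3.34 in mono-culture (0.35). Pou2f3, Pou4f2, Pou4f3 and Pou5f2 were dim and differed by 0.27, -0.12, 0.00 and 0.14, and the coactivators Pou2af1, Pou2af2 and Pou2af3 by 0.27, 0.19 and 0.09.

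Members with roles in other organs differed little. Nkx2-5, the cardiac gene, was 5.56 in co-culture against 5.19 in mono-culture (0.37), and Nkx2-3, Nkx2-6 and Pax4 were dim and differed by 0.03, -0.18 and -0.08. Nkx2-8 was 4.80 in co-culture against 4.61 in mono-culture (0.19), and Six6os1 was 1.28 in co-culture against 1.34 in mono-culture (-0.06).

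**Figure D4:**
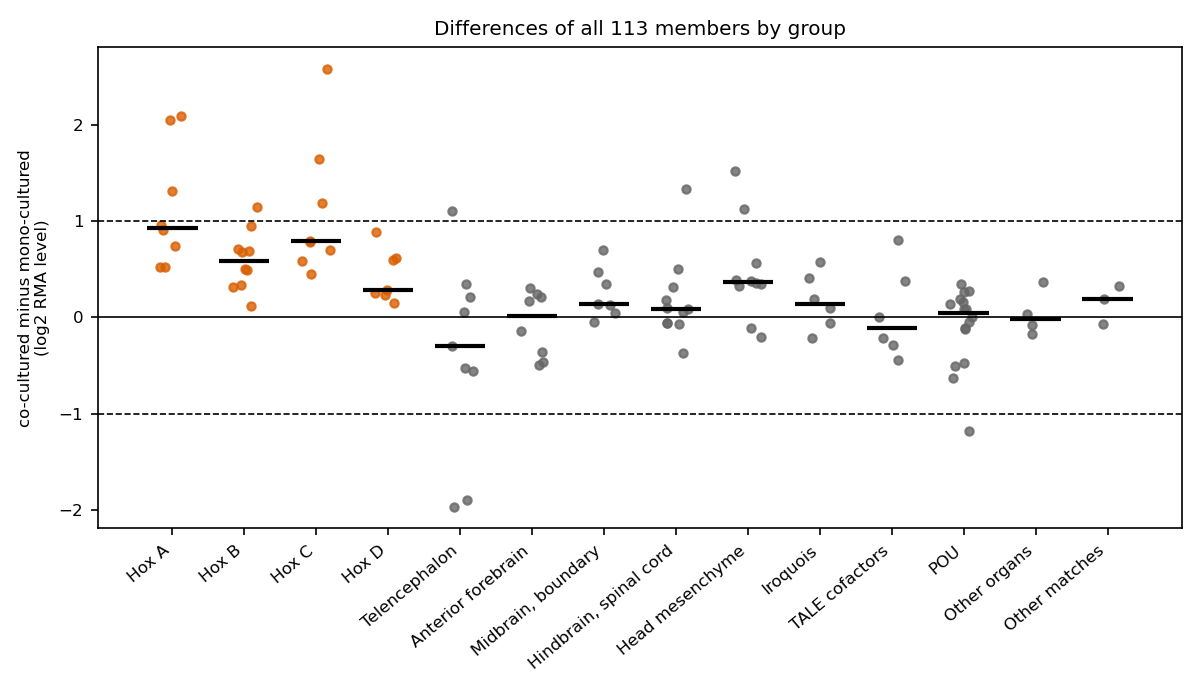
Difference in log2 RMA level, co-cultured minus mono-cultured, of all 113 members by Hox cluster and regional group; points are genes, horizontal bars the group medians, and dashed lines 2-fold in each direction. The 4 Hox clusters lie wholly above 0, with medians from 0.29 to 0.93, while telencephalic genes run from -1.96 to 1.11.

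Beside the members, 51 of 58 listed other patterning genes were examined. At any level 9 of the 51 passed 2-fold upward and 2 downward, beside 2.93% and 3.23% of all genes, and the median was 0.24. Of these genes 25 reached 4.97 on at least 1 array, 24 in co-culture and 13 in mono-culture. Among the genes at least 2-fold higher, Prrx2, Nr2f2, Tbx3, Alx1, Msx1 and Foxc1 reached it in co-culture but not in mono-culture. Nr2e1, at least 2-fold lower, reached it in mono-culture but not in co-culture. The 8 of these 25 with the largest absolute difference include the mesenchymal homeobox genes Prrx2 (7.44 in co-culture against 4.58 in mono-culture, 2.86) and Prrx1 (9.40 in co-culture against 6.69 in mono-culture, 2.71). Nr2f2, a nuclear receptor of ventral brain, vessels and mesenchyme, was 6.83 in co-culture against 4.73 in mono-culture (2.10), and Egr2, a hindbrain and Schwann cell gene, 8.20 in co-culture against 6.20 in mono-culture (1.99). Tbx3 differed by 1.39 and the facial mesenchyme gene Alx1 by 1.26. In the other direction, Dbx2, a gene of the middle of the neural tube, was 5.09 in co-culture against 6.71 in mono-culture (-1.62), and the neural stem cell gene Nr2e1 was 3.98 in co-culture against 5.52 in mono-culture (-1.54). Prrx1 also stands on the mesenchymal marker list.

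Genes that control Hox expression in other systems passed 2-fold about as often as all kept genes did. Of the 28 of 31 listed genes that were examined, 22 reached 4.97, and 1 passed 2-fold upward and 1 downward, beside 5.04% and 5.54% of kept genes. The median was 0.05 over all 28. Aldh1a2, which makes retinoic acid, a signal that switches on Hox genes in the embryo, was 5.88 in co-culture against 3.96 in mono-culture (1.92). Aldh1a2 reached 4.97 only on the array where it is higher. The retinoid receptor partner Rxra was 5.98 in co-culture against 7.04 in mono-culture (-1.06). The Polycomb genes Ezh2 and Eed, which keep Hox genes silent, were 6.17 in co-culture against 5.95 in mono-culture (0.22) and 5.84 in co-culture against 6.32 in mono-culture (-0.48), and Kmt2a, which keeps them active, was 6.98 in co-culture against 7.04 in mono-culture (-0.05).

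**Figure D5:**
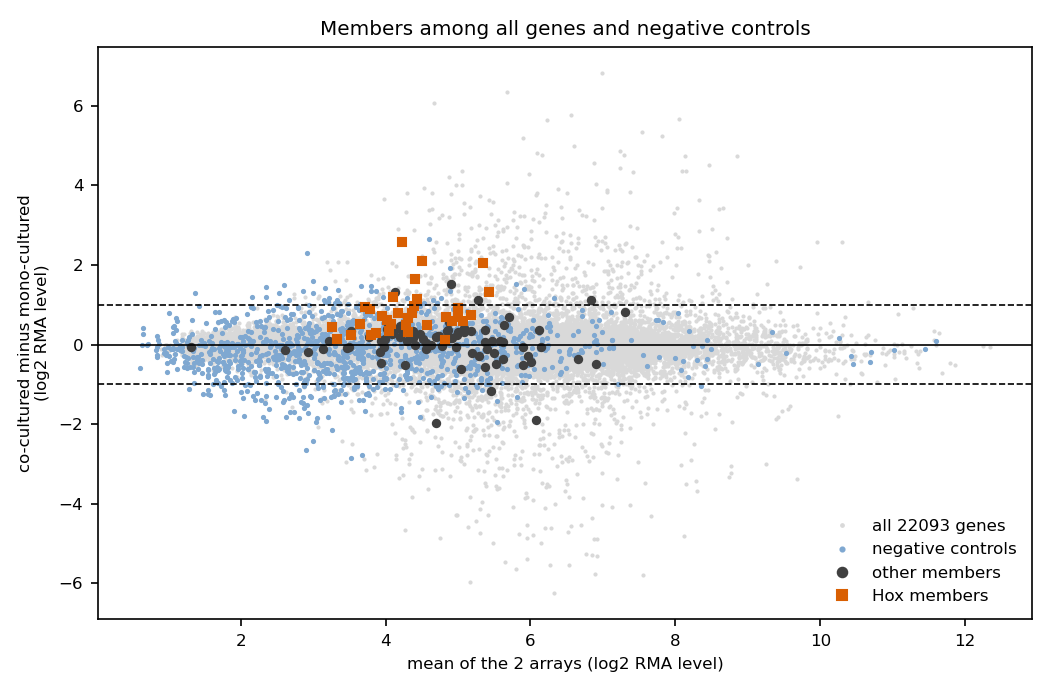
Difference in log2 RMA level, co-cultured minus mono-cultured, against the mean of both arrays for all 22093 genes (grey), 1153 negative controls (blue), the 80 other members (dark circles) and the 33 Hox genes (orange squares); dashed lines mark 2-fold. The Hox genes lie at the low levels that negative controls also cover, and all of them lie above 0.

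The precision of these values is limited by the number of arrays. The spread that can be described is that between probe sets of a gene within these arrays: the SD of the difference was 0.28 over 1182 genes with several probe sets and 0.48 over the 12 such members.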

How the data were processed

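Biotin-labelled whole-transcript cDNA of 1 co-cultured and 1 mono-cultured sample was measured on 1 array per sample, as the protocols in the labels describe. The authors deposited log2 values made with RMA, according to the submitters' processing notes. RMA corrects background, normalizes and summarises probes. Its version is not given in the sources used here. Values ran from 0.33 to 12.74. Normalization makes a shift of most genes at once invisible, and background compresses differences at low levels.

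Probe sets with 1 symbol in the platform annotation (23446 of 70580 rows) were averaged per gene. Of the 113 members 12 had several probe sets. By Entrez ID, 111 of the members matched RefSeq (GRCr8), with no other symbol, while Hoxa5 has no Entrez ID in the annotation and the ID of Hoxa11 did not match. Genes reaching the median gene level on an array were kept (11849). Differences were counted at 2-fold, with no test. Members, lists and settings were chosen with earlier results of these data known. Named are all members that reach the level mark, dim ones near it or past 2-fold, and from 2 background lists up to 8 genes past 2-fold with their values. Ezh2, Eed and Kmt2a were named outside this rule. Some genes are not reported here. The counting was tested on simulated data, with changes planted only in genes well above the level mark. That test does not cover changes at the low levels of the Hox genes. Alternatives were median centring, quantile normalization (limma 3.58.1, R 4.3.3), a loess fit (span 0.4), other filters, a floor, other probe set rules, the mean, and limits of 1.5-fold and 4-fold. The remaining work was done in Python 3.11.15 with numpy 2.4.6 and pandas 2.3.3.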

Additional observations from a re-analysis of the deposited data

How the results depend on the processing

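All 33 Hox genes stayed higher in co-culture under median centring, quantile normalization, the loess fit and the brightest probe set, with the smallest difference between 0.07 and 0.13, and all 14 members at least 2-fold apart at any level stayed so. The levels set the main limit. With levels below 4.97 raised to 4.97, the median of the Hox genes was 0.00, of HoxA 0.53, HoxB 0.00, HoxC 0.10, HoxD 0.00, head mesenchyme 0.027 and telencephalon 0.00, and 3 members were at least 2-fold higher, since most Hox levels lie below that floor. No paired analysis was possible because each group has 1 array.

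The 9 members at least 2-fold higher became 16 at 1.5-fold, 3 at 4-fold, 5 among genes with 1 probe set, 2 with a filter at the 75th percentile and 1 with a filter at 6.64. The 3 members at least 2-fold lower became 0 at 4-fold and 1 under each of these filters. With the 75th percentile filter, medians rested on 1 or 2 genes: 2.05 for the Hox genes and for HoxA, 1.12 for head mesenchyme, -0.37 for hindbrain and spinal cord, -0.48 for POU, 0.59 for TALE and -1.89 for telencephalon. With the filter at 6.64 no Hox gene was left, and medians were -0.37 for all members, for the members outside the Hox clusters and for hindbrain and spinal cord, 1.12 for head mesenchyme, -0.48 for POU, 0.81 for TALE and -1.89 for telencephalon. HoxA had a median of 1.27 with the brightest probe set and HoxC a mean of 1.09. The brightest probe sets of Hoxa2, Hoxa7 and Hoxa9 gave 2.37, 1.81 and 1.58, above the averages over their probe sets. Those of Hoxa3 and Hoxa6 gave 0.53 and 1.80, below the averages. In HoxC, Hoxc6 (2.58) and Hoxc9 (1.65) lay far above the cluster median of 0.79.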
